A study of Mus musculus with 4 samples.

Results

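Genes of glucose uptake and glycolysis, 10 in all, were followed across single-cell clusters from a mouse cardiac differentiation. They were taken by gene symbol: Slc2a1, Gpi1, Pfkp, Aldoa, Gapdh, Pgk1, Pgam1, Eno1, Eno3 and Ldha. All 10 were among the 1197 genes of the authors' deposited table of cluster markers, and they made up 33 of its 2212 entries. Each entry sets 1 of 15 numbered clusters against all other cells. The mouse embryonic stem cells carried a 3XFLAG tag on BRG1, an ATPase of the BAF chromatin remodelling complex for which Brm is the alternative. They were taken through a directed cardiac differentiation. The 4 libraries were Brm knockout mesoderm (BRG1 3XFLAG; BRM KO), Brm knockout cardiac stage with the same genotype, wild-type mesoderm (BRG1 3XFLAG) and wild-type cardiac stage, with 1 library in each group. All 4 thus carried the tagged BRG1, and whether the knockout line is 1 clone is not stated. Mesoderm is labelled as derived from embryonic stem cells, and the cardiac stage is called cardiac myocyte in one label and cardiac progenitors in another. The table names no library, so no contrast of genotype or stage was made, and no source used here says which libraries' cells it holds. Cell numbers and sequencing depth are unknown, no value has a replicate, and no test was made. Clustering used these same cells and genes, so every difference between clusters below is a description.

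Glycolysis splits glucose into pyruvate and yields ATP without oxygen, and lactate dehydrogenase then turns pyruvate into lactate so that the pathway can go on. SLC2A1 (GLUT1) brings glucose into the cell. GPI1, the phosphofructokinases, aldolase, GAPDH, PGK1, phosphoglycerate mutase and enolase then carry the sugar down the pathway. In the developing heart early myocytes rely strongly on glycolysis and later turn to fatty acids, and mature muscle uses its own forms of several enzymes, among them the mutase PGAM2 and the enolase ENO3. Many genes of the pathway are targets of the hypoxia-inducible factor HIF-1, which binds DNA at a short core, ACGTG or GCGTG.

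Promoters are shown for 5 of the 8 genes listed higher in cluster 2, described further on, and the HIF-1 core can be looked for in them. Aldoa, Gapdh and Gpi1 were also listed higher there and are not shown, and Gpi1 has no core in its window. The windows shown therefore do not stand for all 8 genes. The sequences are from RefSeq on GRCm38.p6, run from 250 bases before to 50 bases after an annotated start, 5′ to 3′ on the gene's strand, and carry the core in capitals on either strand. Slc2a1 lies at chr4:119108495-119108794 (plus strand) and Pfkp at chr13:6648722-6649021 (minus strand). Pgk1 lies at chrX:106186850-106187149 (plus strand) and Eno3 at chr11:70656926-70657225 (plus strand). For Ldha 1 of 2 annotated starts is shown, at chr7:46845554-46845853 (plus strand). The Ldha start shown has 7 cores and the one not shown has 2.
Slc2a1: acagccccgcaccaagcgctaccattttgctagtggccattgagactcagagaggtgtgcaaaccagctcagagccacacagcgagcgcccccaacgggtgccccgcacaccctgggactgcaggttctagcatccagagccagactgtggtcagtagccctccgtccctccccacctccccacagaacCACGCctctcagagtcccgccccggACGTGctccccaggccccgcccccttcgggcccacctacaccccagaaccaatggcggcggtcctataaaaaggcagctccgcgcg
Pfkp: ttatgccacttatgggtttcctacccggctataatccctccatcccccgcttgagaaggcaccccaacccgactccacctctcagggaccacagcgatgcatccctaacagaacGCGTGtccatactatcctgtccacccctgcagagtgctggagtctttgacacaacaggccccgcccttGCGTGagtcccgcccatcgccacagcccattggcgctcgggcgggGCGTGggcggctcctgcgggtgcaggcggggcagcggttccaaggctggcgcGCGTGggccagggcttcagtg
Pgk1: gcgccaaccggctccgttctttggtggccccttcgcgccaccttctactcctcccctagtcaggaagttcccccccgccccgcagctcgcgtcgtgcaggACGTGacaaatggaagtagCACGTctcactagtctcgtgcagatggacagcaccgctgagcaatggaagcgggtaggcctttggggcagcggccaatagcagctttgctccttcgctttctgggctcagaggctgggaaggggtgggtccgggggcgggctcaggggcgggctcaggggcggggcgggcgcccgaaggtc
Eno3: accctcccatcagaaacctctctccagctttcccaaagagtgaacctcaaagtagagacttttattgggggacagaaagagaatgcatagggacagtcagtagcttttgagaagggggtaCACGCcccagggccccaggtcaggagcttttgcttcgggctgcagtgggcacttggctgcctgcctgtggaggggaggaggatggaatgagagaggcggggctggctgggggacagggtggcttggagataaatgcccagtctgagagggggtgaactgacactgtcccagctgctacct
Ldha: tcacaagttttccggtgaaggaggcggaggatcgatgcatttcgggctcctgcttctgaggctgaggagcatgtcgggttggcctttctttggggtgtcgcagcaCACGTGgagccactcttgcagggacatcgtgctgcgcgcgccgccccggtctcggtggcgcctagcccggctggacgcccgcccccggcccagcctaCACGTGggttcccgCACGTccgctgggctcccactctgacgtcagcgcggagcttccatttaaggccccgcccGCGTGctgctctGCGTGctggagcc

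All 10 genes had an entry among the RefSeq starts, 15 starts in all. The core was in at least 1 start of 9 genes and in 13 of the 15 starts. Some windows of Aldoa and of Eno1 overlap and hold the same cores, so the starts are not independent. The same letters were in 43.8% of all 32851 starts and in 63.2% of the 1177 starts of genes in the marker table, so a core is common in windows of this length. Median GC content was 65.0% in starts of the 10 genes, against 61.3% for genes in the marker table and 52.7% for all starts. Gpi1 had no core in its window. Ldha had 7 in the window shown, of which 4 lie in 2 copies of the palindrome CACGTG, where the core overlaps itself on both strands. This palindrome was in no window of the other 9 genes and in 7.15% of all starts. A match of letters is no evidence that a factor binds.

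The 10 genes fell into a simple pattern. Of their 33 entries, 8 were higher and all 8 were in cluster 2, while 25 were lower and were spread over 8 other clusters. The remaining 6 clusters (0, 3, 7, 8, 9 and 13) listed none of the 10 genes. A gene is absent from a cluster's list where its fold lay under the table's threshold of 0.50 on the natural log scale, which is 1.65-fold, where too few cells detected it, or where the deposited p-value over cells was not low enough. An unlisted gene may therefore still differ. Folds here are e raised to the deposited value. They include a constant, not stated, that was added before logs were taken, which can understate the folds of weakly detected genes.

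**Figure D1:**
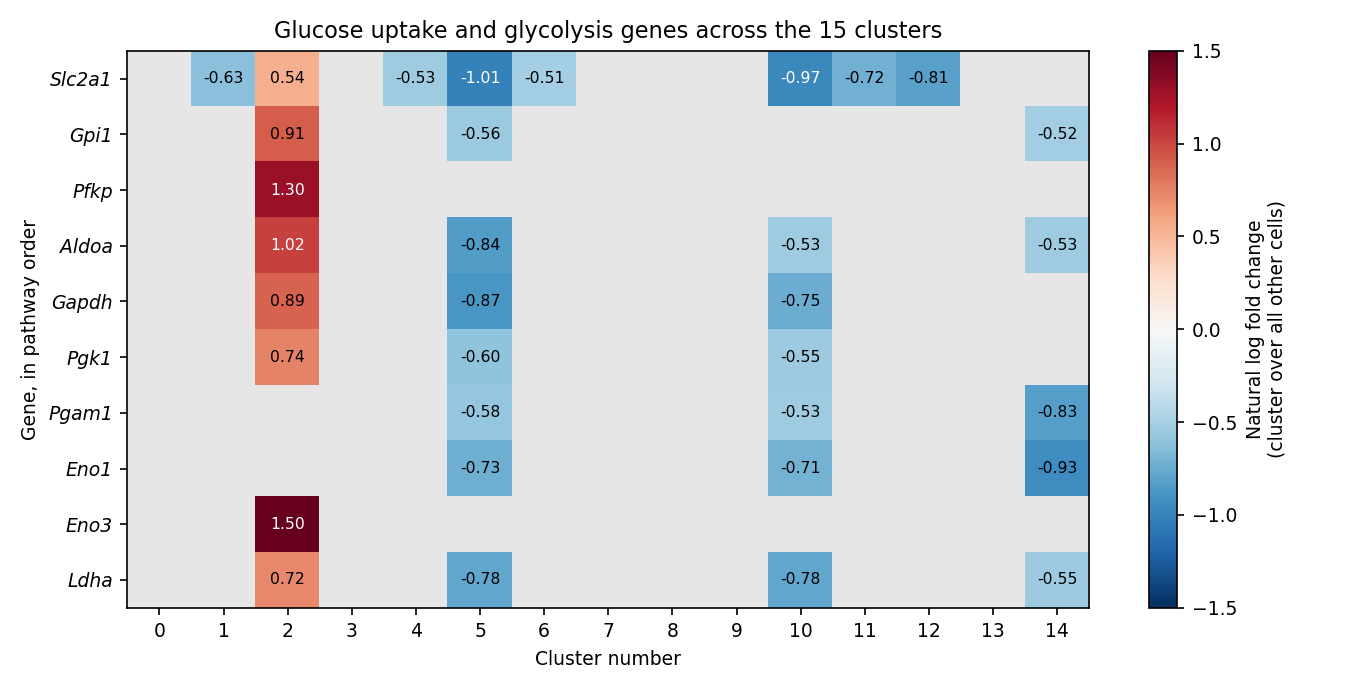
Natural log fold change of each gene (rows, in pathway order) in each cluster (columns) over all other cells per the authors' deposited table; grey cells are not listed. All red cells are in cluster 2, and clusters 5, 10 and 14 hold 20 of the 25 blue cells.

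Cluster 2 was cardiomyocyte-like: all 10 of the cardiomyocyte markers in the table, of 11 on the list, were higher in it. It held 12.6% of cells, by sizes solved from the detection shares. Of the 10 glycolysis genes 8 were listed higher there, where 22.7% of all genes in the table were listed higher. Pfkp and Eno3, among the 8, have entries in cluster 2 alone, so being higher there is what put them in the table. The median fold of the 8 was 2.47, beside 2.30 for all 272 genes listed higher in cluster 2. The steps ran from the glucose transporter to lactate dehydrogenase.

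Slc2a1, of glucose uptake, had the smallest fold of the 8 genes, though not the smallest difference in detection. It was 1.71-fold higher per the authors' deposited table, detected in 64.4% of cells inside cluster 2 and 39.6% outside. Gpi1, which turns glucose 6-phosphate into fructose 6-phosphate, was 2.49-fold higher, detected in 88.8% inside and 55.4% outside per the authors' deposited table. Pfkp, the platelet-type phosphofructokinase of the committed step, was 3.66-fold higher, detected in 52.5% inside and 3.7% outside per the authors' deposited table. Pfkp was thus scarce in other cells, and 67.3% of the cells detecting it lay in cluster 2. Whether free RNA from cluster 2 gave part of the detection elsewhere was not tested.

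The enzymes of the middle of the pathway were detected in nearly every cell of cluster 2, and in most other cells too. Aldoa, the aldolase that splits the sugar, was 2.77-fold higher, with detection in 99.3% of cells inside and 91.2% outside per the authors' deposited table. Gapdh, which makes the NADH of the pathway, was 2.45-fold higher, detected in 99.2% inside and 90.9% outside per the authors' deposited table. Pgk1, which makes ATP, was 2.09-fold higher per the authors' deposited table, detected in 97.8% inside and 85.1% outside. Ldha, the lactate dehydrogenase subunit that favours lactate, was 2.04-fold higher, detected in 99.4% inside and 93.3% outside per the authors' deposited table. For these 4 genes the shares were close to their ceiling, so the folds rest on the level more than on detection. Gapdh, Aldoa, Ldha, Pgam1 and Eno1 have near-identical copies in the mouse genome, and no source used here says how the counting divided reads among such copies.

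Phosphoglycerate mutase and enolase were listed in cluster 2 only through their muscle forms. Eno3, the muscle enolase, was 4.48-fold higher per the authors' deposited table, the largest fold of the 10 genes, and was detected in 75.0% of cells inside cluster 2 and 14.6% outside. Of the cells detecting Eno3, 42.6% lay in cluster 2. Eno1, the widely expressed enolase, was not listed in cluster 2 in either direction. Pgam2, the muscle mutase and not one of the 10 genes, was 11.8-fold higher, detected in 78.4% of cells inside and 1.8% outside per the authors' deposited table, whereas Pgam1 was not listed there. Eno1 and Pgam1 were detected in 77.2% and 70.5% of all cells, by the solved sizes. Their level in cluster 2 is known only as within the table's thresholds.

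**Figure D2:**
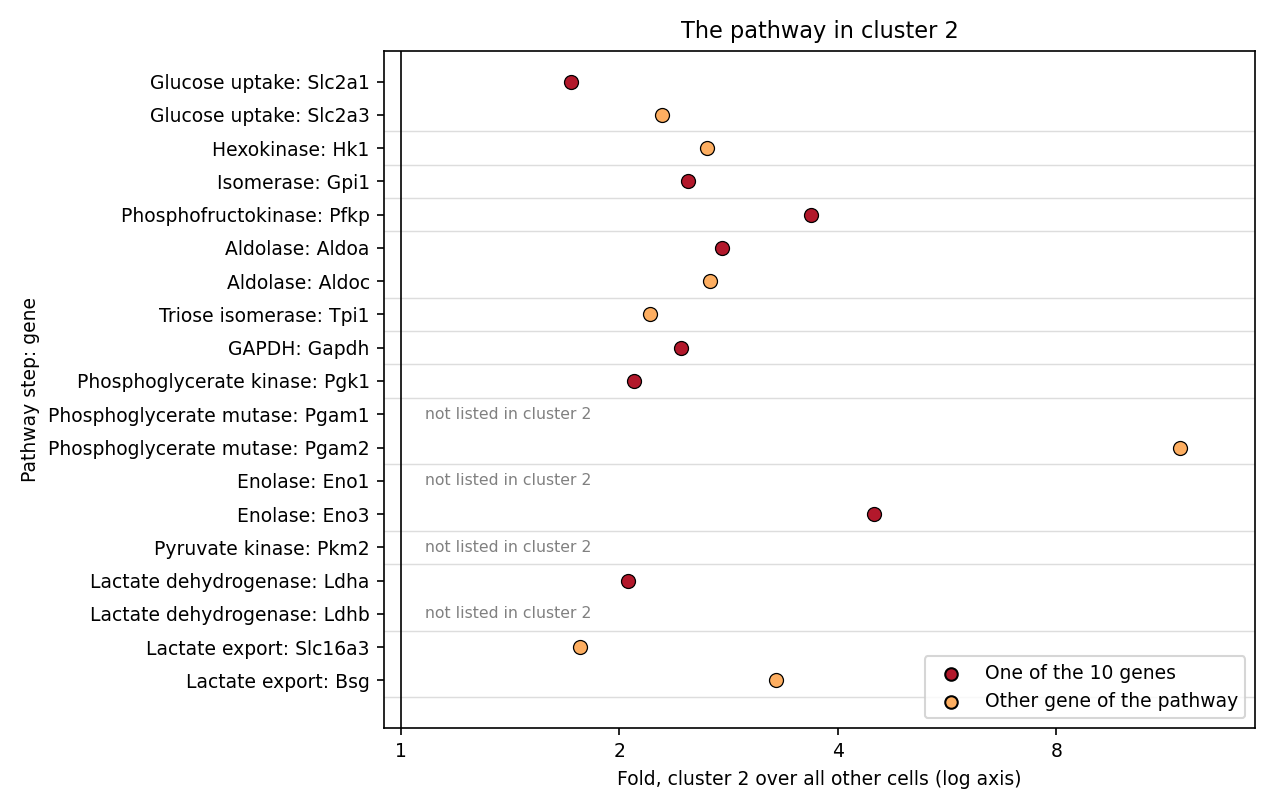
Fold of each pathway gene in cluster 2 over all other cells (log axis), by pathway step per the authors' deposited table. Red points are the 10 genes and orange points other genes of the pathway; Pgam2 at 11.8-fold and Eno3 at 4.48-fold are farthest to the right, and Pgam1, Eno1, Pkm2 and Ldhb are not listed.

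Other genes of the pathway were read from a list of 34, of which 7 were in the table. Cluster 2 listed 5 of the 7 as higher and none as lower, where 22.7% of all genes in the table were listed higher. Besides Pgam2 the 5 were Aldoc, a second aldolase, at 2.67-fold, the hexokinase Hk1 at 2.64-fold, the glucose transporter Slc2a3 at 2.30-fold and the triose phosphate isomerase Tpi1 at 2.19-fold per the authors' deposited table. Aldoc, Hk1 and Tpi1 have entries in cluster 2 alone, so being higher there is what put them in the table. Hk1, which traps glucose in the cell, was detected in 40.3% of cells inside cluster 2 and 4.6% outside per the authors' deposited table. Pkm2, the older symbol of the pyruvate kinase gene Pkm, was not listed in cluster 2, so the last ATP-making step was the only one from hexokinase to lactate dehydrogenase with no gene listed there. Of 16 genes of pyruvate fate and lactate export, 3 were in the table, and cluster 2 listed the lactate exporter Slc16a3 at 1.77-fold and its chaperone Bsg at 3.29-fold per the authors' deposited table.

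Pathways that branch from glycolysis went both ways in cluster 2. All 3 glycogen genes in the table, of 19 on the list, were higher, where 22.7% of all genes in the table were listed higher. The glycogen primer Gyg was 19.0-fold, Pgm2 2.86-fold and Ppp1r3c 2.15-fold higher per the authors' deposited table. Pgm2 and Ppp1r3c have entries in cluster 2 alone. On the list of pentose phosphate and serine genes, 2 of the 3 in the table were lower, where 25.7% of all genes in the table were listed lower in cluster 2. Tkt, the transketolase of the pentose phosphate pathway, was 2.77-fold lower, and Phgdh, which opens serine synthesis, was 2.20-fold lower per the authors' deposited table. All 10 of the G2 and M phase genes in the table were also lower in cluster 2, and 4 of the 9 mitochondrially encoded genes were higher. Tkt and Phgdh have entries in cluster 2 alone, as have the G2 and M phase genes Birc5, Ccnb1, Ccnb2, Cdc20, Cdk1 and Cenpa. The part of proliferation or of mitochondrial RNA in the glycolysis values was not tested.

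Hypoxia-inducible genes were read from a list of 45, of which 16 were in the table. The list shares Hk1, Tpi1 and Slc16a3 with those above. Cluster 2 listed 10 of the 16 as higher and none as lower, where 22.7% of all genes in the table were listed higher. Among the 10, Bnip3l, Hk1, Insig2, Jmjd6 and Tpi1 are in the table only through cluster 2. Bnip3, a mitophagy receptor, was 4.32-fold higher, detected in 86.4% of cells inside cluster 2 and 30.5% outside per the authors' deposited table. Higd1a and Fam162a, small mitochondrial proteins, were 2.67-fold and 2.46-fold higher per the authors' deposited table. Hif1a and Vegfa were listed in no cluster.

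Clusters 5 and 10 were mesenchymal-like, with 4 and 8 of the 11 mesenchymal markers higher, the fibrillar collagen genes among them. Cluster 9 had 5 of the 11 higher, among them Acta2, Tagln and Vim, and listed none of the 10 glycolysis genes. Lower entries of these glycolysis genes were thus not shared by all clusters with mesenchymal markers higher. The genes may still be lower in cluster 9 by less than the table's threshold. Clusters 5 and 10 held 8.51% and 2.93% of cells. Cluster 5 listed 8 of the 10 glycolysis genes as lower, where 4.26% of all genes in the table were listed lower. Cluster 10 listed 7 as lower, where 4.09% of all genes were listed lower, and all 7 were also among the 8 of cluster 5. Eno1 and Pgam1 are in the table only through lower entries, in clusters 5, 10 and 14. The clusters are each set against all other cells, so their references share most cells and the values are given side by side only.

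Slc2a1 had the largest fold in both. It was 2.73-fold lower in cluster 5, detected in 8.9% of cells inside and 45.8% outside per the authors' deposited table. In cluster 10 it was 2.63-fold lower, detected in 9.6% inside and 43.7% outside per the authors' deposited table. Gapdh was lower by 2.38-fold in cluster 5 and by 2.13-fold in cluster 10 per the authors' deposited table. Its detection was 64.8% inside cluster 5 against 94.5% outside, and 67.0% inside cluster 10 against 92.7% outside per the authors' deposited table. Both clusters thus detected a nearly universal gene in about the same reduced share of cells.

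Ldha was lower by 2.18-fold in cluster 5 and by 2.19-fold in cluster 10, and Eno1 2.08-fold and 2.04-fold lower per the authors' deposited table. Eno1 was detected in 40.9% of cells inside cluster 5 and 80.6% outside, and in 44.0% inside cluster 10 and 78.3% outside per the authors' deposited table. Pgk1 was 1.82-fold and 1.74-fold lower, and Pgam1 1.78-fold and 1.70-fold lower, in clusters 5 and 10 of the authors' deposited table. These 4 genes therefore differed little between the clusters. Aldoa was lower by 2.31-fold in cluster 5 and by 1.70-fold in cluster 10, and Gpi1, at 1.75-fold lower, was listed for cluster 5 alone of the pair, per the authors' deposited table. The median of the members listed lower was 2.13-fold in cluster 5 and 2.04-fold in cluster 10, beside 2.04-fold and 1.83-fold for all genes listed lower there.

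Of the 7 other pathway genes in the table, clusters 5 and 10 each listed 1 as lower, Pkm2, and none as higher. Pkm2 was lower by 2.30-fold in cluster 5 and by 2.03-fold in cluster 10 per the authors' deposited table. The chaperone gene Bsg was 1.98-fold and 1.66-fold lower, and the hypoxia-inducible Bnip3 2.04-fold and 1.81-fold lower, in clusters 5 and 10 of the authors' deposited table. Of the 16 hypoxia-list genes in the table, 4 were lower in cluster 5 and 2 in cluster 10, and none was higher. Of all genes in the table, 4.26% were listed lower in cluster 5 and 4.09% in cluster 10. A count of 1 or 2 is too small to be read as a result about a list. Detection was low for the size of the fold in these clusters and in cluster 13: among all genes whose deposited value lay between -0.75 and 0, the median of inside minus outside was -27.6 percentage points in cluster 5, -26.0 in cluster 13 and -23.7 in cluster 10, against -22.2 in cluster 2 and -19.4 over all clusters. Among genes listed higher with a deposited value up to 0.75, the medians were 12.9, 16.7 and 11.9 points in clusters 5, 10 and 13. The other clusters lay between 20.5 and 43.5 points. Detection was thus low for the size of the fold in genes listed higher as well. The part of sequencing depth in these detection shares was not tested.

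**Figure D3:**
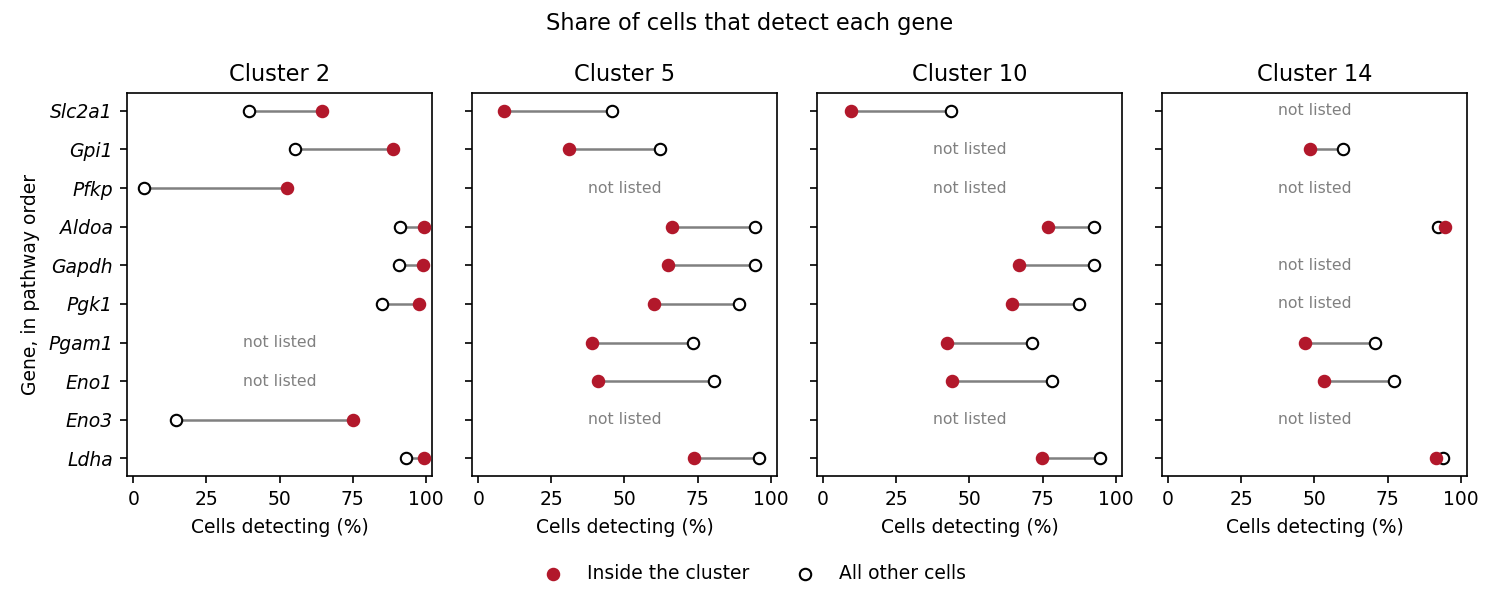
Share of cells that detect each gene inside a cluster (red) and in all other cells (open), for clusters 2, 5, 10 and 14 per the authors' deposited table. Inside cluster 5 and cluster 10 each listed gene is detected in fewer cells, whereas in cluster 14 Aldoa and Ldha lie within 2.4 points of the other cells.

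Cluster 14 was small, with 0.291% of cells, and endoderm-like: 5 of the 6 endoderm markers in the table were higher, as were 6 of 7 epithelial markers. It listed 5 of the 10 genes as lower, where 9.19% of all genes in the table were listed lower. Eno1 was 2.53-fold lower, detected in 53.2% of cells inside and 77.3% outside per the authors' deposited table. Pgam1 was 2.30-fold lower, detected in 46.8% inside and 70.6% outside per the authors' deposited table. These were the largest folds of Eno1 and Pgam1 among the clusters that list them. Ldha was 1.74-fold lower, Aldoa 1.70-fold and Gpi1 1.68-fold per the authors' deposited table. Aldoa was nevertheless detected in 94.5% of cells inside cluster 14 and 92.2% outside per the authors' deposited table, so its entry rests on the level per cell.

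The glucose transporter genes Slc2a1 and Slc2a3 were not listed lower in cluster 14. Slc2a1 had no entry there, and neither had the enzyme genes Gapdh, Pgk1, Pfkp and Eno3. Slc2a3, a neuronal-type glucose transporter with high affinity, was 3.95-fold higher, detected in 69.7% of cells inside and 22.3% outside per the authors' deposited table. Ldhb, the lactate dehydrogenase subunit that favours pyruvate, was 3.70-fold lower, detected in 13.8% inside and 57.5% outside per the authors' deposited table. Pkm2 was 2.04-fold lower per the authors' deposited table. Of the 16 hypoxia-list genes in the table, 6 were higher and 2 lower, where 26.2% of all genes in the table were listed higher. A count of 6 is not far from that share. Among the 6, Epas1, P4ha2 and Plod2 are in the table only through cluster 14. The higher ones included the collagen-modifying enzymes Plod2 at 4.16-fold, Loxl2 at 3.53-fold, P4ha1 at 2.73-fold and P4ha2 at 2.00-fold, and the oxygen-regulated factor Epas1 at 3.19-fold per the authors' deposited table. The lower ones, Fam162a and Mif, were 2.26-fold and 2.23-fold lower per the authors' deposited table. None of these 4 collagen enzymes was listed for cluster 2. Cited2, the remaining gene of the 6, was by contrast raised in both clusters. Its folds were 3.81 for cluster 14 and 2.53 for cluster 2, per the authors' deposited table.

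Slc2a1 varied across more clusters than any other of the 10 genes, with entries in 8. Besides clusters 5 and 10 it was lower in the neural-progenitor-like clusters 1 and 4, where 5 of 7 neural progenitor markers in the table were higher in each, and in cluster 6, which no marker list named. It was 1.87-fold lower in cluster 1, 1.70-fold in cluster 4 and 1.66-fold in cluster 6 per the authors' deposited table. It was also lower in the neuron-like cluster 12, where all 6 neuron markers in the table were higher, at 2.24-fold, and in cluster 11, led by Col3a1 and Col2a1, at 2.05-fold per the authors' deposited table. Slc2a1 was the only one of the 10 genes listed in these 5 clusters. Of all genes in the table, 2.59% were listed lower in cluster 1, 2.42% in cluster 4, 2.17% in cluster 6, 1.59% in cluster 11 and 3.84% in cluster 12, shares at which 1 of 10 genes is no result about the group.

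Inside the clusters where it was lower, Slc2a1 was detected in 24.6% of cells of cluster 1, 26.7% of cluster 4, 28.5% of cluster 6, 27.6% of cluster 11 and 15.3% of cluster 12 per the authors' deposited table. The 7 clusters that listed it lower held 44.4% of cells. The solved sizes give what the 7 unlisted clusters (0, 3, 7, 8, 9, 13 and 14) hold together: they made up 42.9% of cells, and 58.3% of their cells detected Slc2a1, against 42.7% of all cells. Their mean level was 1.32 times that of all cells, beside 1.57 times in cluster 2. Slc2a1 was thus also above the mean of all cells in the unlisted clusters as a pool, which include those with nascent mesoderm and pluripotent markers higher. The order of the listed clusters by level ran from cluster 2 through 6, 4, 1, 11 and 12 to clusters 10 and 5, at 0.39 times the mean of all cells in both. Neighbours in this order have no spread between samples to be told apart by.

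**Figure D4:**
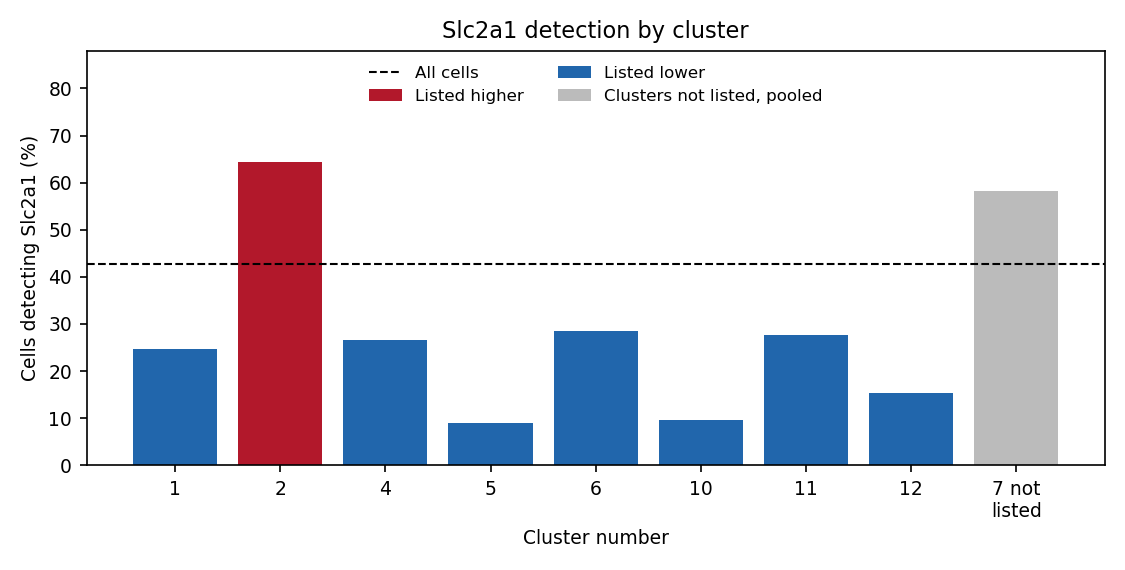
Share of cells that detect Slc2a1 (bars, percent) inside each cluster that lists it per the authors' deposited table, and in the 7 unlisted clusters pooled (grey, from the solved sizes). The dashed line is all cells at 42.7%; cluster 2 at 64.4% and the pooled unlisted clusters at 58.3% lie above it and clusters 5 and 10 are lowest.

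Since each cluster is set against all other cells, a high cluster 2 lowers every other cluster's fold. The level of each gene over the mean of all cells was therefore worked out from the deposited folds and the solved sizes. Aldoa stood at 2.26 times the mean in cluster 2, 0.46 in cluster 5, 0.60 in cluster 10 and 0.59 in cluster 14. Cluster 2 was thus 4.96-fold above cluster 5 for Aldoa. For Gapdh the same ratio was 4.69, for Slc2a1 4.05, for Ldha 3.75, for Gpi1 3.53 and for Pgk1 3.23. In the clusters that did not list them, Aldoa, Gapdh, Pgk1, Ldha and Gpi1 pooled to between 0.87 and 0.95 times the mean of all cells.

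With cluster 2 taken out of the reference, a setting chosen for counts after seeing the data, all 19 lower entries that could be recomputed were still below 1-fold, and 10 stayed past the table's threshold. Cluster 5 kept 4 of 6 (Slc2a1 at 2.52-fold lower, Gapdh at 2.02, Ldha at 1.92 and Aldoa at 1.88). Cluster 10 kept 3 of 5 (Slc2a1 at 2.42-fold lower, Ldha at 1.93 and Gapdh at 1.80). Cluster 14 kept none of 3, with Ldha at 1.53-fold, Gpi1 at 1.41-fold and Aldoa at 1.39-fold lower. Slc2a1 kept 5 of its 7 clusters and went under the threshold in clusters 4 and 6. Eno1 and Pgam1 could not be recomputed, as cluster 2 does not list them.

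**Figure D5:**
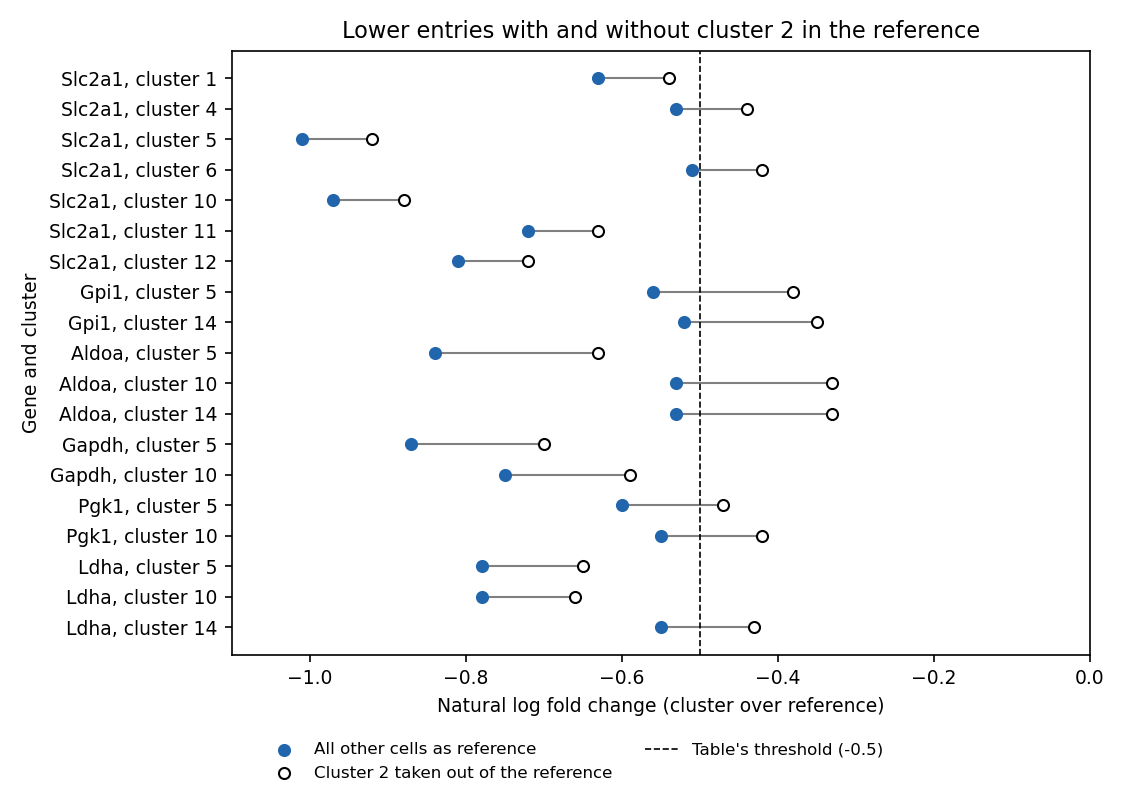
Natural log fold change of each lower entry over all other cells (blue) and with cluster 2 taken out of the reference (open); the dashed line is the table's threshold. All points lie below 0, and 10 of the 19 open points stay left of the threshold.

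Cluster 13, with 0.497% of cells, listed all 10 cardiomyocyte markers in the table as higher and none of the 10 glycolysis genes. Each marker was detected in a smaller share of cells than in cluster 2. Actc1 was detected in 48.0% of cells at 2.58-fold, against 98.2% at 58.9-fold in cluster 2, per the authors' deposited table. Cluster 2 is also in the reference of cluster 13, so a smaller rise of the glycolysis genes could go unlisted. Of the other pathway genes cluster 13 listed Pgam2 at 3.03-fold higher, detected in 36.3% of cells inside and 11.4% outside per the authors' deposited table. The mitochondrial genome's genes, 9 of 9 in the table, were higher there as well, where 5.35% of all genes in the table were listed higher. Of these, mt-Atp6, mt-Nd1, mt-Nd2 and mt-Nd5 have entries in cluster 13 alone, so being higher there is what put them in the table. Gyg was 3.07-fold and Bnip3 1.67-fold higher in cluster 13 per the authors' deposited table.

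For members listed in at least 3 clusters, the genes with the most similar entries were looked up. Likeness was the number of clusters that list both genes in the same direction over the number that list either. Pkm2 matched Eno1 and Pgam1 in 3 of 3 clusters, and Bsg matched Gapdh and Pgk1 in 3 of 3. Fam162a matched Gpi1 in 3 of 4, and Cdh2, which encodes N-cadherin, matched Aldoa and Ldha in 4 of 5. For Slc2a1 the nearest were Rbpms and Myl6, an RNA-binding protein gene and a myosin light chain gene, in 8 of 9 clusters each, and Tpm1, a tropomyosin gene, in 8 of 10.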

How the data were processed

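Single cells were profiled with 10x V2 chemistry, and the submitters' processing notes name Cell Ranger, Seurat and the build mm9; no source used here states versions, cell filters, doublet treatment or clustering settings. The deposited table holds, per the file headers, log fold changes of each cluster over all other cells, whose base the header does not give, the fraction of cells that detect a gene, and p-values over cells. The deposited fractions are printed as percent. The p-values compare cells, which are not replicates, and served only as a filter. The deposited log fold changes were read as natural log, and this base was checked on 3 genes listed in clusters with over 95% of cells: natural folds accounted for 96.3% to 99.6% of expression, near the 96.3% to 99.7% of cells, and base 2 for 86.9% to 90.2%.

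Cluster sizes were solved by least squares over 407 genes listed in 2 or more clusters (sum 100.002%, residual SD 0.0228 percentage points). Levels over the mean of all cells, pooled levels of unlisted clusters and folds without cluster 2 follow from sizes and folds, with the authors' unknown log constant left in. Shares of genes listed use all 1197 table genes. Members, lists and markers were chosen with earlier results of these data known. Named genes were the members, the pathway lists and the 3 most like genes of each member listed in at least 3 clusters. Steps were tested on simulated data. No contrast of genotype or stage was made, as the table names no library. Python 3.11.15, numpy 2.4.6, pandas 2.3.3 and matplotlib 3.10.9 were used.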

Additional observations from a re-analysis of the deposited data

How the results depend on the processing

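No paired analysis was possible because each group has 1 library and the table names none. No count of members changed under a filter on the deposited adjusted p-value except that of cluster 14, where Gpi1 dropped out and 4 of 5 remained. At 1 or more on the natural log scale, cluster 2 listed 3 of its 8 members as higher, cluster 5 listed 1 of 8 as lower, clusters 10 and 14 listed 0, and Slc2a1 was lower in 1 cluster; in cluster 2 the other pathway genes fell to 1, the hypoxia list to 1 and the energy list to 6. With detection differing by at least 10 percentage points, cluster 2 listed 5 members and cluster 14 listed 3. Without cluster 2 in the reference, the recomputed members past the threshold numbered 4 in cluster 5, 3 in cluster 10 and 0 in cluster 14. Of 19 recomputed folds 9 went under the threshold and none changed direction. Reading the folds as base 2 moved Eno3 in cluster 2 to 2.83-fold and none of the other 32 by over 1.5 times. Sizes from 317 genes, without the members and genes listed in 5 or more clusters, shifted by at most 3.72% of their value (cluster 13), and none of the 33 levels moved by over 1.5 times. Depth is unknown, so no counting interval was made, and small clusters could miss entries.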

Other observations

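Genes of muscle energy use and oxidation stood beside glycolysis in cluster 2. Of a list of 37, 15 were in the table. Cluster 2 listed 14 as higher and none as lower, where 22.7% of all genes in the table were listed higher. Acadm, Cox8a, Cs, Idh3a and Mdh1 have entries in cluster 2 alone, so being higher there is what put them in the table. The heart and muscle cytochrome oxidase subunit Cox6a2 was 6.90-fold higher, detected in 69.7% of cells inside and 1.1% outside per the authors' deposited table. The calcium pump Atp2a2 was 5.04-fold, the fatty acid binding gene Fabp3 3.87-fold and the mitochondrial ADP/ATP carrier Slc25a4 3.12-fold higher per the authors' deposited table. The creatine kinase Ckb was 3.00-fold higher, and Mdh1, Idh2, Idh3a and Cs, which act in or beside the citric acid cycle, between 1.69-fold and 2.74-fold higher per the authors' deposited table. Acadm, of fatty acid oxidation, was 1.82-fold higher per the authors' deposited table. The 15th gene, Slc25a5, another ADP/ATP carrier, was not listed in cluster 2 and was 1.71-fold and 1.72-fold lower in clusters 5 and 10 per the authors' deposited table. Cluster 2 thus listed genes of glycolysis and of oxidation higher at once.

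The lactate transporters were listed in different clusters. Slc16a1 was 2.05-fold higher in cluster 3, where all 7 epithelial markers were higher, and 1.72-fold higher in cluster 14, while Slc16a3 was higher in cluster 2 alone per the authors' deposited table. Fabp3 was 7.36-fold higher in cluster 14 per the authors' deposited table, above its value in cluster 2. Slc2a3 was also 1.72-fold higher in cluster 9 and 1.88-fold lower in cluster 0 per the authors' deposited table.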
